A study of Mus musculus with 57 samples.

Results

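The SR proteins and the heterogeneous nuclear ribonucleoproteins (hnRNPs) are RNA-binding proteins that mark which parts of a new transcript are kept as exons. All gene rows of the table of 57 single cells whose symbol starts with Srsf or Hnrnp were taken, together with Tra2a, Tra2b, U2af1, U2af2, Sf3b1, Ptbp1 and Srrm2, which gave 37 genes of 12852 with a symbol. They were 10 SR proteins (Srsf1 to Srsf7, Srsf9, Srsf10 and Srsf11), 3 SR-related genes, 3 genes of 3′ splice site recognition, and 21 hnRNP genes including Ptbp1 (hnRNP I).

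SR proteins bind exonic enhancers through their RNA recognition motifs and recruit the spliceosome through domains rich in arginine and serine, which kinases of the SRPK and CLK families phosphorylate. Many hnRNPs bind silencers and compete with SR proteins at the same exons, as hnRNP A1 does with SRSF1. U2AF reads the polypyrimidine tract and the AG at the end of an intron, and SF3B1 holds U2 snRNP at the branch point.

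RM1 is a mouse prostate cancer line, here marked with transgenes for cerulean (eCFP) and luciferase (Luc2). After staining with PKH26, a membrane dye that each division dilutes, the cells were given to C57BL/6 mice by intracardiac injection. Sorting from bone took dye-positive RM1 cells as dormant and dye-negative ones as proliferating, so the state is a record of dye retention. Single-cell RNA-seq over full-length transcripts compared these states.

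There were 28 dormant (PKH26+) cells from 6 mice, with 5 cells from mouse 1184, 11 from mouse 1185, 1 from mouse 244, 2 from mouse 360, 6 from mouse 369 and 3 from mouse 452. There were 29 proliferating (PKH26−) cells from 6 mice, with 4 cells from mouse 1185, 2 from mouse 268, 1 from mouse 288, 3 from mouse 360, 13 from mouse 369 and 6 from mouse 452. The mice were sampled between days 13 and 26 after injection, and mice 360, 369, 452 and 1185 contributed to both states. Although 32 proliferating cells are counted in the series text, 29 were analysed here. Values are reads normalised by the authors with a model that uses spike-in RNA, and the reads recovered from them came to 945351 to 5306777 a cell. Genes above 0 per cell numbered 2673 to 9880 in dormant cells and 2399 to 10509 in proliferating cells.

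Of the dormant cells, 6 had an eCFP value under 100, from mouse 1184 (1 cell), mouse 244 (1), mouse 360 (2) and mouse 369 (2), and these are called low-label cells. The summed level of the epithelial keratins Krt8 and Krt18 was 0 to 12.5 normalised reads in low-label cells, 1355 to 22461 in the other 22 dormant cells, called labelled, and 391 to 27226 in proliferating cells. The summed level of 18 pan-leukocyte genes was 41600 to 90314 in low-label cells, 935 to 20342 in labelled dormant cells and 762 to 10059 in proliferating cells. The summed level of 10 monocyte and macrophage genes was 76025 to 305403 in low-label cells, 0 to 128182 in labelled dormant cells and 0 to 1461 in proliferating cells. Low eCFP defined the low-label cells. Luc2 was 2.28 to 230 normalised reads in low-label cells (median 11.3) and 1850 to 26410 in labelled dormant cells. The keratins were near 0 in the low-label cells. Each member's difference between the states that is described is given with and without these cells. Leaving them out removes mice 244 and 360 from the dormant state. Of the 18 leukocyte genes, at least 5 were above 0 in all 6 low-label cells, in 11 of 22 labelled dormant cells and in 12 of 29 proliferating cells. The cell cycle gene Mki67 was above 0 in 12 of 22 labelled dormant and 22 of 29 proliferating cells. For the same 2 classes the counts were 16 and 27 for Top2a, 11 and 27 for Cenpe, and 19 and 27 for Ccnb1. They were 21 and 28 for Pcna, and 20 and 29 for Mcm7. Per the labels each library batch held cells of 1 state, and the effects of batch and state cannot be told apart.

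Splicing factor transcripts were found in nearly every cell. The number of the 37 members above 0 was 19 to 37 (median 36) in labelled dormant cells, 19 to 35 (median 29.5) in low-label cells and 17 to 37 (median 36) in proliferating cells. All 37 were above 0 in 6 dormant cells and in 12 proliferating cells. Hnrnpa3, Hnrnpc, Hnrnpk, Srsf2 and Srsf7 were above 0 in all 28 dormant and all 29 proliferating cells. At the other end, Hnrnph3 had a value above 0 in 15 of the 28 dormant and 21 of the 29 proliferating cells, and Hnrnpul2 in 17 of the dormant and 18 of the proliferating cells.

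Levels between genes were compared per kilobase of annotated exons, as medians over all 57 cells. The highest were Hnrnpf at 833 normalised reads per kb, Hnrnpab at 785, Hnrnpk at 733, Hnrnpa1 at 541 and Hnrnpc at 383. Within labelled dormant cells the first 4 were Hnrnpf (855), Hnrnpab (738), Hnrnpk (715) and Hnrnpa1 (479). In low-label cells they were Hnrnpk (712), Hnrnpf (637), Hnrnpc (304) and Hnrnpa2b1 (298), and Hnrnpa1 stood at 30.5. In proliferating cells they were Hnrnpab (1048), Hnrnpk (892), Hnrnpf (884) and Hnrnpa1 (875). Hnrnpf and Hnrnpk were thus among the first 3 in each class, while the place of Hnrnpa1 changed with the class. Over all cells Srsf2 (328) and Srsf3 (320) led the SR proteins, followed by Srsf7 (269), Srsf5 (179) and Srsf6 (178). Hnrnpul1 (3.75), Hnrnpa0 (3.53) and Hnrnpul2 (0.348) were lowest. The length counts all annotated exons of a gene, whether or not they are used in these cells, so a long total lowers the value. Hnrnpr had the longest total, 22.2 kb, and the use of its exons was not examined. No order between neighbours in this ranking was tested.

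To compare states, log2(normalised reads + 1) was averaged over the cells of each mouse and state, and the mouse was the replicate. Differences are dormant minus proliferating on this scale. Since cells at 0 count in the mean, a difference mixes how many cells had the gene with how much they had. All 37 members passed the filter on low values, which asked for a value above 0 in at least 6 cells.

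Over all mice, with 6 dormant and 6 proliferating means, none of the 37 members passed limma's test at a Benjamini-Hochberg adjusted p of 0.05, and 0% of the 11843 genes tested did. At an unadjusted p under 0.05, 5 members were lower in dormant cells and 0 were higher, against 6.22% of all genes lower and 3.28% higher. These 5 were Ptbp1, Srsf1, Hnrnpa1, Hnrnpr and Srsf7. The difference was below 0 for 26 of 37 members and for 63.1% of all genes, and the median difference was −0.56 over members and −0.35 over all genes. On the reads summed per mouse and state, edgeR and DESeq2 called 0 members, also 0 at an unadjusted p under 0.05, and their median differences over members were −0.18 and −0.16. edgeR called 0 genes of all those tested and DESeq2 called 308. The number of members with an unadjusted p under 0.05 was 3 without mouse 360 (Ptbp1, Srsf1 and Hnrnpr) and 8 without mouse 268, each left out of both states. No shares of all genes were set beside the counts of 3 and 8, so they cannot be read as particular to the members.

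Without the low-label cells, with 4 dormant and 6 proliferating means, 0 members passed, as did 0% of 11595 genes. No member had an unadjusted p under 0.05, against 0.509% of all genes lower and 1.45% higher in dormant cells. The difference was below 0 for 23 of 37 members and for 45.5% of all genes, with a median of −0.20 over members and 0.09 over all genes. This median turned positive without mouse 452 (0.20) or without mouse 360 (0.06), each left out of both states, with a median of 0.34 over all genes in both. Hnrnpk alone of the members had an unadjusted p under 0.05 when mouse 369, 1184 or 1185 was left out, with no share of all genes set beside it. edgeR and DESeq2 called 0 members here too, and DESeq2 called 14 genes.

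**Figure D1:**
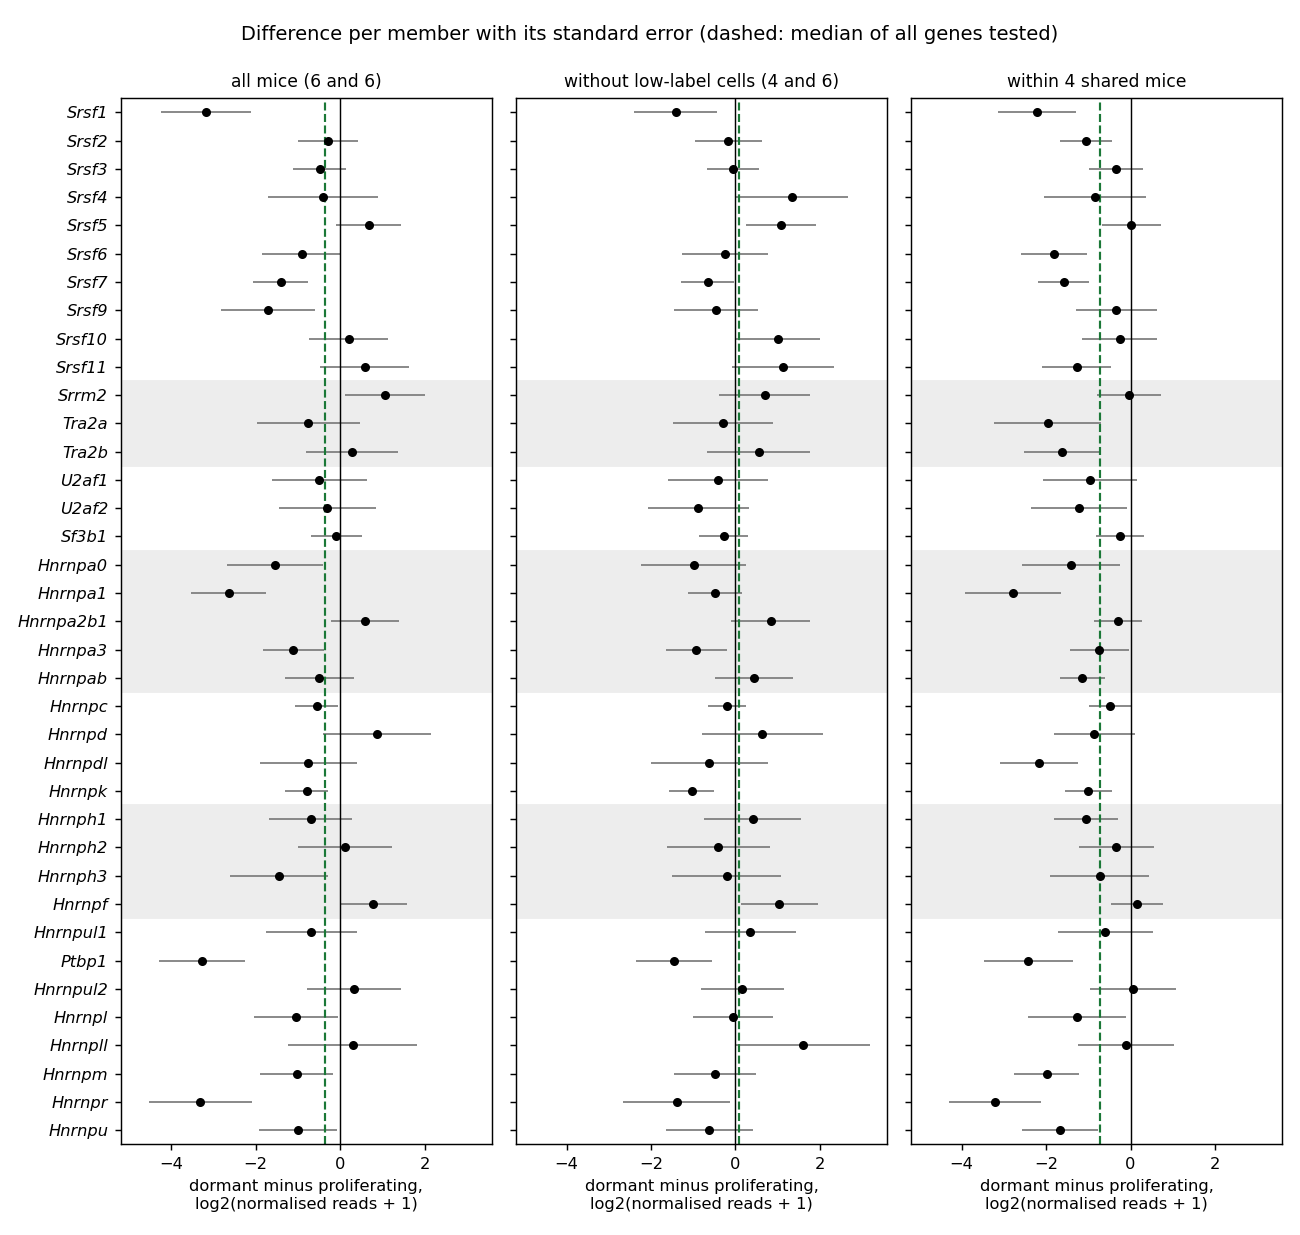
Difference of each member, dormant minus proliferating on the log2(normalised reads + 1) scale, with its limma standard error, over all mice (left), without low-label cells (middle) and within the 4 shared mice (right). Shading parts the groups of genes by role, and the dashed line is the median of all genes tested (−0.35, 0.09 and −0.72). Ptbp1, Srsf1, Hnrnpr and Hnrnpa1 lie furthest to the left over all mice, and lie closer to 0 in the middle panel. Hnrnpll lies furthest from 0 in the middle panel, at 1.60 ± 1.59, and is at 0.29 ± 1.53 over all mice.

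The upstream sequence of the 4 members with the smallest p over all mice is shown with that of Sf3b1, whose mean hardly differed between the states, so that the genes can be read beside their values. Each run is the 250 bases before the annotated start, from RefSeq on GRCm38.p6, in the direction of the gene. Capitals mark the E-box CACGTG, which Myc and Max bind, and the CCAAT box, to which NF-Y binds. They also mark the GC box GGGCGG, a site of Sp1, and the TATA box where it reads TATAAA, all on either strand. Ptbp1 lies at chr10:79854182-79854431 on the plus strand, Srsf1 at chr11:88047123-88047372 plus, Hnrnpr at chr4:136310692-136310941 plus (the first of its 2 listed starts), Hnrnpa1 at chr15:103240147-103240396 plus, and Sf3b1 at chr1:55027479-55027728 minus.
Ptbp1: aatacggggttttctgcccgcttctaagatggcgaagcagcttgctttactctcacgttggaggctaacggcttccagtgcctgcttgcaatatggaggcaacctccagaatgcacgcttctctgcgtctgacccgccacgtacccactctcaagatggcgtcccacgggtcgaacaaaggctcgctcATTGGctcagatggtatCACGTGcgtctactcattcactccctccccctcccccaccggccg
Srsf1: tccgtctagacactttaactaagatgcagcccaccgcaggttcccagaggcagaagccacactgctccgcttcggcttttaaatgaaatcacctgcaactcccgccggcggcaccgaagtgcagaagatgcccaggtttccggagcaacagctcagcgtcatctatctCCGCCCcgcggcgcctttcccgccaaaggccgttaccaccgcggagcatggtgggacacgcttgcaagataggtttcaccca
Hnrnpr: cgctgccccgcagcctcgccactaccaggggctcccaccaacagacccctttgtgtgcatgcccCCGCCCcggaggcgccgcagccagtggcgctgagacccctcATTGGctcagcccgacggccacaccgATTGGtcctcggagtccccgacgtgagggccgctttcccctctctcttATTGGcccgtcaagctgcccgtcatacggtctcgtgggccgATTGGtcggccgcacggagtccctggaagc
Hnrnpa1: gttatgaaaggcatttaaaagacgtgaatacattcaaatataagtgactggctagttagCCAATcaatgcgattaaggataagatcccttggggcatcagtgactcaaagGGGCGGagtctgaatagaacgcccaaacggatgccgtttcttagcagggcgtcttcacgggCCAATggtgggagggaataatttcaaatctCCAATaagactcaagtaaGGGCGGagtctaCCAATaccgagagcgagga
Sf3b1: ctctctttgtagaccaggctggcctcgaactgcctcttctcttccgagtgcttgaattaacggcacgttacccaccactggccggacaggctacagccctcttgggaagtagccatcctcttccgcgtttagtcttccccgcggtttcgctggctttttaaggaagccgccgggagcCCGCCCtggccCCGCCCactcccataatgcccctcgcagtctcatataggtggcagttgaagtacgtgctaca

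Hnrnpa1 held 4 CCAAT and 2 GC box matches and Hnrnpr held 4 and 1. Ptbp1 held 1 E-box and 1 CCAAT match, Srsf1 held 1 GC box match, and Sf3b1 held 2 GC box matches. The table had windows for 34 of the 37 members, 48 in all since some genes have several starts. CCAAT was in 50% of member windows and 35.4% of the windows of all genes in the expression table, and GGGCGG in 77.1% and 57.7%. CACGTG was in 8.33% of member windows and 8.31% of those of all genes in the expression table, and TATAAA in 6.25% and 6.60%. Median GC content was 64.4% in member windows and 59.6% in those of all genes in the expression table, and windows of 1 gene can overlap. A match is a run of letters and not a measured binding site.

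Srsf1, the SR protein that competes with hnRNP A1 and that has been described as an oncogene, had the widest gap among the SR proteins. Its mouse means were 1.65 to 8.56 (median 5.77) in dormant cells and 6.61 to 10.60 (median 8.43) in proliferating cells. Of the dormant means, those of mice 1185 and 369 lay inside the proliferating range, and the single low-label cell of mouse 244 was lowest. The difference was −3.18 ± 1.07 (limma standard error, n = 6 and 6 mice; adjusted p = 0.437). With mouse 244 left out, the Srsf1 difference over all mice was −2.40 ± 0.93. With low-label cells left out the dormant means were 5.95, 8.56, 9.32 and 5.39 in mice 1184, 1185, 369 and 452, and the difference was −1.41 ± 0.98 (limma adjusted p = 1.00). Of these 4 dormant means, 2 lay below all proliferating means. Srsf1 had a value above 0 in 26 of the 28 dormant cells and in all 29 proliferating cells. Median normalised reads were 2.64 in low-label cells, 385 in labelled dormant cells and 682 in proliferating cells.

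Srsf7, an SR protein with a zinc knuckle, also known as 9G8, that takes part in mRNA export, had mouse means of 7.27 to 9.76 (median 8.37) in dormant cells and 8.36 to 11.14 (median 10.09) in proliferating cells. The difference was −1.41 ± 0.65 (limma adjusted p = 0.496). Without low-label cells the dormant means were 8.78, 9.76, 10.12 and 8.32 in mice 1184, 1185, 369 and 452, and the difference was −0.65 ± 0.63. Of these 4 dormant means, 3 lay inside the proliferating range. Over all mice, Srsf7 had an unadjusted p under 0.05 when mouse 244, 268, 288 or 1185 was left out, and not when mouse 360, 369, 452 or 1184 was.

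Of the other SR proteins, Srsf9 differed by more than Srsf7 over all mice, and Srsf4, Srsf5, Srsf10 and Srsf11 differed by more than Srsf7 without low-label cells. Srsf2, which binds exonic enhancers and also acts in transcription, averaged 9.20 ± 0.23 in dormant cells and 9.48 ± 1.71 in proliferating cells (SD, n = 6 mice each). Srsf3, the smallest member of the family, averaged 10.61 ± 1.09 in dormant and 11.09 ± 1.40 in proliferating cells. Neither difference, −0.28 for Srsf2 and −0.48 for Srsf3, was larger than the SD of the proliferating means. That of Srsf2 was larger in size than the SD of its dormant means. Without low-label cells the differences were −0.16 ± 0.79 and −0.05 ± 0.61 (limma standard error). The Srsf2 difference over all mice was −0.92 ± 0.58 with mouse 288 left out and 0.02 ± 0.79 with mouse 360 left out. Within the 4 shared mice it was −1.05 ± 0.61. Srsf9 averaged 6.13 ± 2.47 in dormant and 7.84 ± 1.46 in proliferating cells, and the lowest dormant value, 1.65, was again the single cell of mouse 244. The Srsf9 difference was −1.71 ± 1.11 (limma adjusted p = 0.661), and −0.46 ± 0.99 without low-label cells. With mouse 244 left out, the Srsf9 difference over all mice was −0.82 ± 0.93. Srsf4, Srsf10 and Srsf11 differed by −0.40 ± 1.30, 0.20 ± 0.94 and 0.58 ± 1.05 over all mice. Without low-label cells their values were 1.33 ± 1.33, 1.00 ± 1.01 and 1.13 ± 1.2 (limma adjusted p = 1.00 for each).

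Srsf5, an SR protein whose gene responds to insulin and growth signals, had the opposite sign. Its means were 8.21 to 9.51 (median 9.39) in dormant cells and 5.22 to 9.84 (median 9.09) in proliferating cells, a difference of 0.67 ± 0.77 (limma adjusted p = 0.830). Over labelled cells the 4 dormant means were 9.39, 9.41, 9.75 and 9.38 in mice 1184, 1185, 369 and 452, and the difference was 1.08 ± 0.83 (limma adjusted p = 1.00). The low proliferating value of 5.22 came from mouse 268, where 1 of the 2 cells had only 2399 genes above 0. With mouse 268 left out, the Srsf5 difference over all mice was 0.04 ± 0.58. Of the 10 SR proteins, 7 had a difference below 0 over all mice and 6 without low-label cells, with medians of −0.44 and −0.11.

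Among the SR-related genes, Srrm2, the large scaffold protein of nuclear speckles, averaged 8.21 ± 1.36 in dormant cells and 7.14 ± 1.83 in proliferating cells (SD, n = 6 mice each). Its difference of 1.07 ± 0.95 (limma standard error; adjusted p = 0.759) was the most positive of the 37 over all mice. Tra2b, which activates exons through GAA-rich enhancers, averaged 7.29 ± 1.65 in dormant and 7.01 ± 2.30 in proliferating cells. Its paralog Tra2a averaged 4.35 ± 2.13 in dormant and 5.10 ± 1.74 in proliferating cells. All 3 differences were within the spread between mice, and without low-label cells they were 0.70 ± 1.08 for Srrm2, 0.55 ± 1.21 for Tra2b and −0.29 ± 1.18 for Tra2a (limma standard error). With mouse 268 left out, the differences over all mice were 0.56 ± 0.85 for Srrm2, −0.31 ± 1.00 for Tra2b and −1.30 ± 1.24 for Tra2a.

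The 3′ splice site genes did not part the states. Sf3b1 averaged 10.27 ± 1.16 in dormant cells and 10.36 ± 0.95 in proliferating cells, a difference of −0.09 ± 0.60 (limma standard error; adjusted p = 0.976). U2af1, the small U2AF subunit that reads the AG, averaged 5.22 ± 1.57 in dormant and 5.71 ± 1.63 in proliferating cells. U2af2, the large subunit that binds the polypyrimidine tract, averaged 3.63 ± 1.80 in dormant and 3.93 ± 1.51 in proliferating cells. All 3 differences stayed below 0 without low-label cells, at −0.28, −0.42 and −0.88 for Sf3b1, U2af1 and U2af2, each smaller than its limma standard error. Median Sf3b1 was 2950 normalised reads in low-label cells, 1887 in labelled dormant cells and 1869 in proliferating cells, so low-label cells were not low in every member.

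Ptbp1, the polypyrimidine tract binding protein, represses exons such as those of neuronal genes and, with hnRNP A1 and A2/B1, selects the M2 form of pyruvate kinase. It was the 1 member whose mouse means did not overlap between states, against 0.405% of all genes. The means were 1.65 to 6.84 (median 5.17) in dormant cells and 6.99 to 9.07 (median 8.00) in proliferating cells. The difference was −3.27 ± 1.03 (limma standard error; adjusted p = 0.437), rank 100 of 11843 genes by p. Ptbp1 was above 0 in 19 of 22 labelled dormant cells, 3 of 6 low-label cells and 29 of 29 proliferating cells. Among cells above 0 its mean level was 7.45 in dormant, 7.85 in labelled dormant and 8.12 in proliferating cells. The gap between dormant and proliferating cells was smaller than that between the mouse means. These levels are means over cells, so the 2 gaps differ in the weight of each mouse as well as in the cells at 0.

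Over labelled cells the Ptbp1 means of the dormant mice were 6.30, 6.84, 8.19 and 5.30 in mice 1184, 1185, 369 and 452. The difference was −1.45 ± 0.89 (limma adjusted p = 1.00), and mouse 369 then lay inside the proliferating range. No member had states that did not overlap in that comparison, where 0.388% of all genes did. Over the 20 alternative settings run on all mice the Ptbp1 difference stayed below 0, between −4.15 and −0.78, with adjusted p-values from 0.249 to 1.00.

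**Figure D2:**
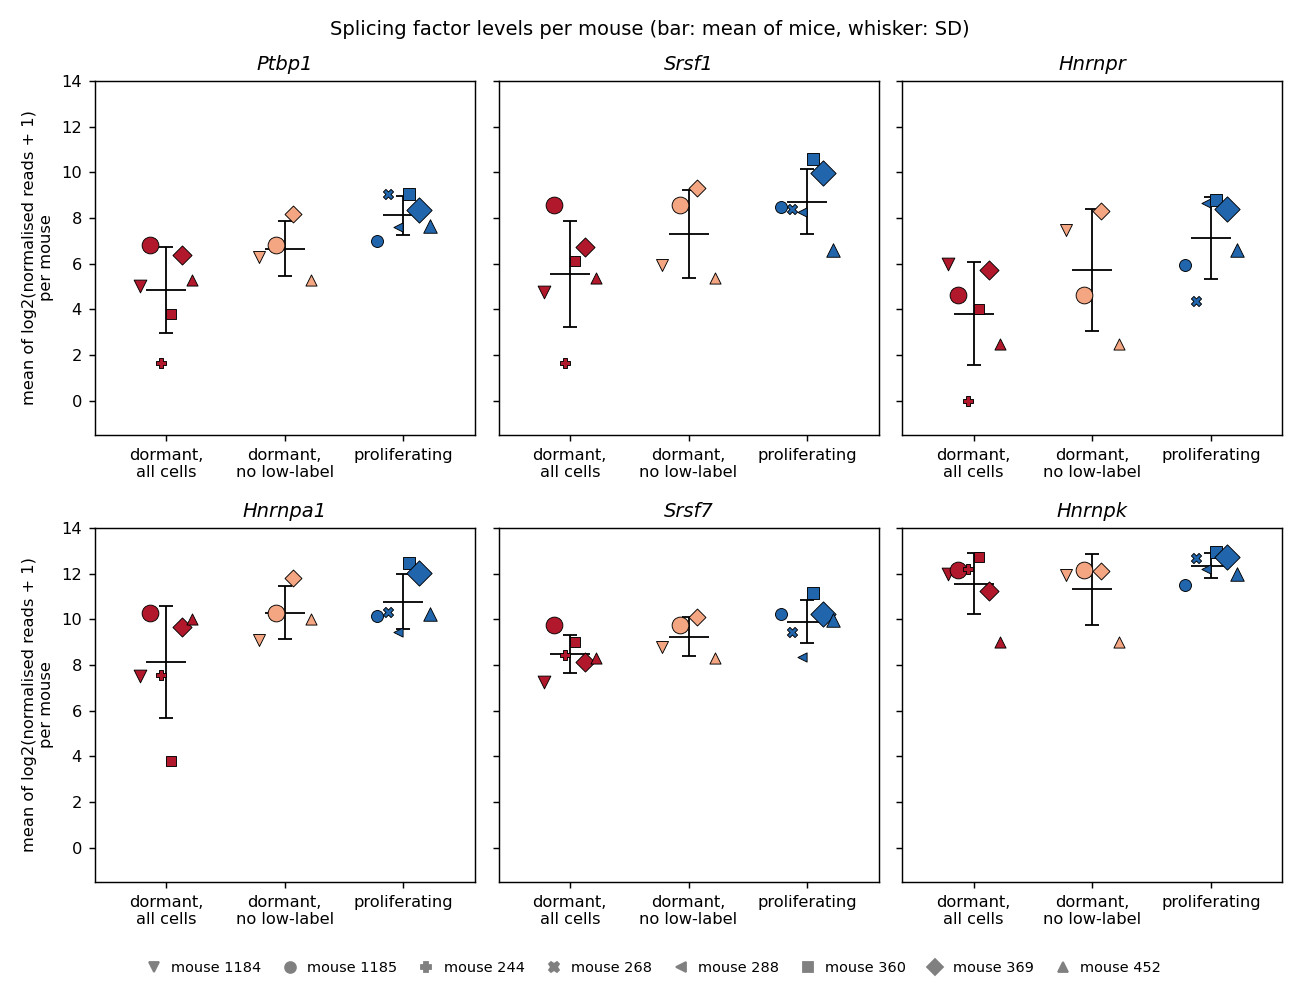
Mean of log2(normalised reads + 1) per mouse for 6 members, for dormant mice over all cells, dormant mice without low-label cells, and proliferating mice, with the mean and SD of the mice as bars. Marker shape gives the mouse and larger markers hold more cells. Dormant Ptbp1 means lie at 1.65 to 6.84 and proliferating ones at 6.99 to 9.07, and without low-label cells the dormant means lie at 5.30 to 8.19.

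Hnrnpr, a relative of the RNA-binding protein SYNCRIP, had mouse means of 0 to 5.97 (median 4.33) in dormant cells and 4.35 to 8.77 (median 7.50) in proliferating cells. The dormant cell of mouse 244 had none, and the proliferating cells of mouse 268 were the only proliferating mean under 5. The difference was −3.31 ± 1.22 (limma adjusted p = 0.443). Hnrnpr was above 0 in 16 of 22 labelled dormant cells, 2 of 6 low-label cells and 27 of 29 proliferating cells. Without low-label cells the dormant means were 7.46, 4.64, 8.30 and 2.50 in mice 1184, 1185, 369 and 452, and the difference was −1.39 ± 1.27 (limma adjusted p = 1.00). These 4 means spread more widely than the proliferating ones, and 3 lay inside the proliferating range.

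Hnrnpa1 had mouse means of 3.79 to 10.26 (median 8.61) in dormant cells and 9.45 to 12.46 (median 10.27) in proliferating cells, a difference of −2.64 ± 0.89 (limma adjusted p = 0.437). The lowest value came from mouse 360, whose dormant cells were both low-label. With mouse 360 left out of both states, the Hnrnpa1 difference over all mice was −1.43 ± 0.73. Median Hnrnpa1 was 96.1 normalised reads in low-label cells, 1509 in labelled dormant cells and 2758 in proliferating cells. With low-label cells left out the dormant means were 9.08, 10.26, 11.83 and 10.02 in mice 1184, 1185, 369 and 452, and the difference was −0.47 ± 0.64 (limma adjusted p = 1.00). Hnrnpa1 has processed copies in the genome, so its value is uncertain as far as the authors' counting split reads between copies.

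Its A/B relatives differed by less over all mice, and Hnrnpa0, Hnrnpa3 and Hnrnpa2b1 by more than Hnrnpa1 without low-label cells. Hnrnpa2b1, which binds UAG-containing RNA and takes part in RNA sorting, averaged 10.53 ± 0.39 in dormant cells and 9.94 ± 2.46 in proliferating cells (SD, n = 6 mice each). Its difference was 0.59 ± 0.80, and 0.84 ± 0.94 without low-label cells (limma standard error). With mouse 268 left out, the Hnrnpa2b1 difference over all mice was −0.29 ± 0.53. Hnrnpa0 differed by −1.54 ± 1.14 over all mice and −0.99 ± 1.24 without low-label cells, and Hnrnpab by −0.50 ± 0.82 and 0.45 ± 0.92. Hnrnpa3 averaged 7.76 ± 0.96 in dormant and 8.87 ± 0.64 in proliferating cells, a difference of −1.11 ± 0.72 (limma adjusted p = 0.662). Over labelled cells the Hnrnpa3 means of the dormant mice were 7.67, 8.46, 8.75 and 6.89 in mice 1184, 1185, 369 and 452, and the difference was −0.92 ± 0.72. Of the 5 A/B genes, 4 had a difference below 0 over all mice and 3 without low-label cells, with medians of −1.11 and −0.47.

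Hnrnpk, which binds C-rich RNA and DNA, had the smallest p of the members once low-label cells were left out. Its dormant means were then 11.93, 12.16, 12.14 and 9.01 in mice 1184, 1185, 369 and 452, and its proliferating means were 11.50 to 12.97 (median 12.44). The difference was −1.04 ± 0.53 (limma adjusted p = 1.00), beside −0.79 ± 0.51 over all mice (limma adjusted p = 0.661). Mouse 452 lay below all proliferating means, and the other 3 dormant means lay inside their range. The lowest labelled dormant cell had 7.94 normalised reads of Hnrnpk, against a median of 4624 in labelled dormant cells. With mouse 452 left out of both states the Hnrnpk difference was −0.34 ± 0.37.

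Hnrnpc, which binds uridine tracts in pre-mRNA and keeps cryptic exons out, was among the steadiest members. Its means in the 4 dormant mice without low-label cells were 10.64, 10.41, 10.54 and 10.37 in mice 1184, 1185, 369 and 452, an SD of 0.12, the smallest of the 37. The proliferating means averaged 10.68 ± 0.56 (SD, n = 6 mice), and the difference was −0.19 ± 0.45 (limma standard error), beside −0.56 ± 0.50 over all mice. Hnrnpu, a nuclear scaffold protein also known as SAF-A, averaged 7.62 ± 1.93 in these dormant mice and 8.24 ± 1.60 in proliferating mice. Its difference was −0.61 ± 1.03 without low-label cells and −1.0 ± 0.92 over all mice (limma standard error).

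Hnrnpf, which binds G-rich runs, averaged 11.14 ± 0.38 in the 4 dormant mice without low-label cells and 10.09 ± 2.45 in the 6 proliferating mice (SD). Its difference of 1.05 ± 0.92 (limma standard error; adjusted p = 1.00) again had mouse 268, at 5.84, as the lowest proliferating mean. The other proliferating means were 8.66 to 12.62. Over all mice the Hnrnpf difference was 0.79 ± 0.80, and −0.06 ± 0.56 with mouse 268 left out. Of its H relatives, Hnrnph3 differed by −1.44 over all mice and −0.20 without low-label cells. Hnrnph1, at −0.70 over all mice and 0.41 without low-label cells, and Hnrnph2, at 0.11 and −0.41, each changed sign between the comparisons.

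Within the 4 mice that gave both states, mouse was a fixed block, and 0 members and 0% of 11565 genes passed limma's adjusted test. At an unadjusted p under 0.05, 8 members were lower in dormant cells and 0 higher, against 8.21% of all genes lower and 1.03% higher. The 8 were Hnrnpr, Srsf7, Hnrnpm, Hnrnpa1, Srsf1, Srsf6, Hnrnpdl and Ptbp1. The difference was below 0 for 34 of 37 members and for 76.5% of all genes, with medians of −1.0 over members and −0.72 over all genes. The 8 became 13 without mouse 1185, 5 without mouse 360, 6 without mouse 452 and 1 (Hnrnpr) without mouse 369. The shares of all genes were not set beside these counts, so the counts cannot be read as particular to the members. edgeR and DESeq2 called 0 members, also 0 at an unadjusted p under 0.05, and DESeq2 called 221 genes. Without low-label cells, in the 3 shared mice that remained, the median was −0.30 over members and −0.11 over all genes. There 24 of 37 members were below 0, with no share of all genes set beside this count.

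Ptbp1 in these mice had means of 3.81 in dormant against 9.03 in proliferating cells of mouse 360, 6.39 against 8.37 in mouse 369, 5.30 against 7.63 in mouse 452, and 6.84 against 6.99 in mouse 1185. Hnrnpr had 4.02 in dormant against 8.77 in proliferating cells of mouse 360, 5.72 against 8.40 in mouse 369, 2.50 against 6.60 in mouse 452, and 4.64 against 5.95 in mouse 1185. Both were lower in dormant cells of all 4 mice. The limma differences were −2.42 ± 1.05 for Ptbp1 and −3.21 ± 1.09 for Hnrnpr, each with an adjusted p of 0.536. The dormant cells of mouse 360 were both low-label, as were 2 of the 6 dormant cells of mouse 369. Without low-label cells mouse 360 drops out, and mouse 369 had 8.19 in dormant against 8.37 in proliferating cells for Ptbp1 and 8.30 against 8.40 for Hnrnpr, with mice 452 and 1185 as before. Both members were lower in dormant cells of the 3 remaining mice, of which only mouse 369 could change. The limma differences were −0.88 for Ptbp1 and −1.84 for Hnrnpr (adjusted p = 0.999 for each).

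Srsf7 had 9.00 in dormant against 11.14 in proliferating cells of mouse 360, 8.14 against 10.22 in mouse 369, 8.32 against 9.95 in mouse 452, and 9.76 against 10.25 in mouse 1185. Its difference was −1.58 ± 0.60 (limma adjusted p = 0.536). Without low-label cells Srsf7 had 10.12 in dormant against 10.22 in proliferating cells of mouse 369, and the difference over the 3 remaining mice was −0.74 (limma adjusted p = 0.999). Hnrnpa3, Hnrnpab, Hnrnpc and Hnrnpdl were also lower in all 4 mice, so that 7 of 37 members were. Of all genes, 43.6%, 72.4%, 73.4% and 59.8% were lower in mice 1185, 360, 369 and 452. The share of all genes lower in all 4 was not counted, so the 7 cannot be read as particular to the members. The same 7 were lower in all 3 mice that remained without low-label cells, of which only mouse 369 could change. With all cells kept, the states did not overlap for 4 members, Hnrnpc, Hnrnpr, Ptbp1 and Srsf7, as they did not for 4.09% of all genes. Each of these 4 overlapped in the 3 mice that remained without low-label cells. Srsf1 differed by −4.46, −3.24 and −1.21 in mice 360, 369 and 452, and by 0.09 in mouse 1185, and without low-label cells its value in mouse 369 was −0.66.

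Values differed from mouse to mouse. In mouse 360 the difference was below 0 for 33 of 37 members, with a median of −2.05 over members and −1.66 over all genes. In mouse 369 it was below 0 for 33 members, with medians of −1.46 and −0.85. In mouse 452 it was below 0 for 30 members, with medians of −1.22 and −0.48. Mouse 1185, with 11 of the 28 dormant cells and no low-label cell, had 9 of 37 members below 0 and medians of 0.35 over members and 0.19 over all genes. Cells with at least 5 of the 18 leukocyte genes were 3 of 3 dormant and 2 of 6 proliferating cells in mouse 452, against 4 of 11 dormant and 2 of 4 proliferating cells in mouse 1185. Without its 2 low-label cells, mouse 369 had 28 members below 0 and medians of −0.19 over members and 0.00 over all genes. With all cells kept, the sign over members thus matched that over all genes in each of the 4 mice, and whether the mice differ was not tested.

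**Figure D3:**
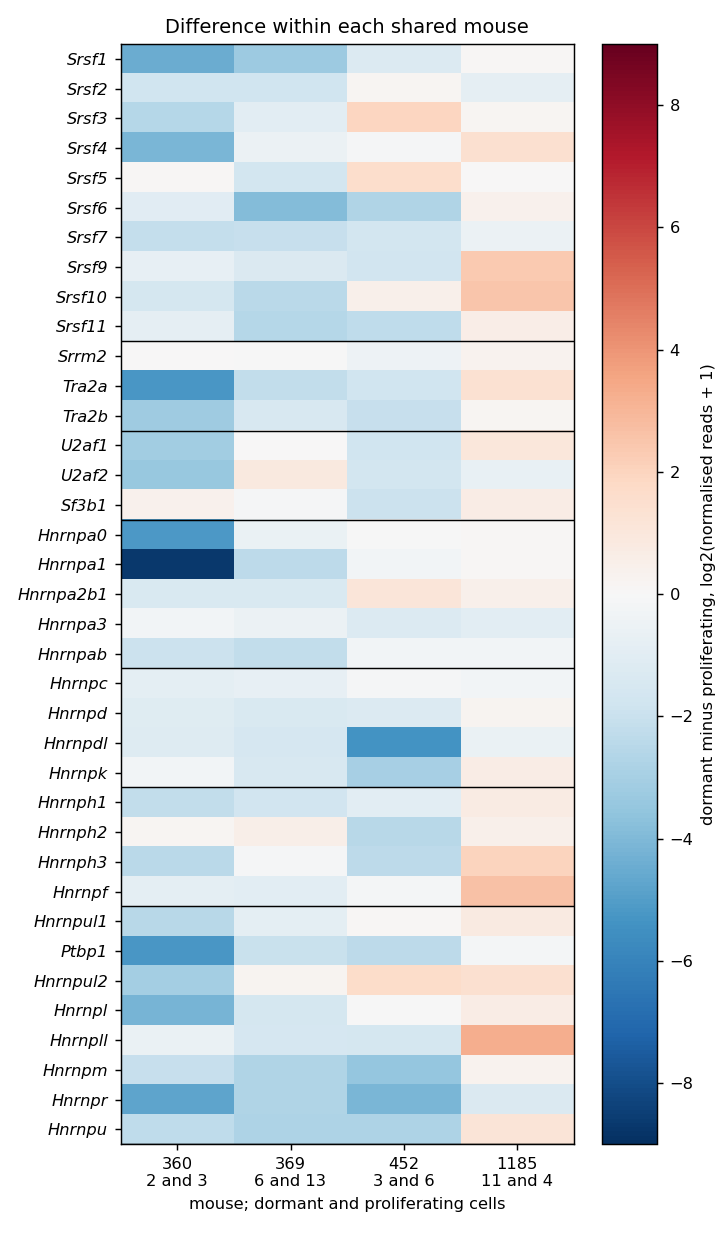
Difference of each member within each mouse that gave both states, dormant minus proliferating on the log2(normalised reads + 1) scale, with the numbers of dormant and proliferating cells under each mouse. Blue is lower and red is higher in dormant cells. Mice 360, 369 and 452 are mostly blue, with Hnrnpa1 in mouse 360 at −8.67, and mouse 1185 is mostly pale or red.

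Values in low-label cells varied from member to member. The mean of log2(normalised reads + 1) over the 37 members ranged from 2.78 to 7.97 (median 6.44) in low-label cells, 3.85 to 8.84 (median 8.20) in labelled dormant cells and 3.46 to 9.71 (median 8.45) in proliferating cells. In low-label cells median normalised reads of Ptbp1, Srsf1 and Hnrnpr were 1.07, 2.64 and 0, against 216, 385 and 152 in labelled dormant cells. Hnrnpk, at 4604 in low-label and 4624 in labelled dormant cells, and Hnrnpa2b1, at 1965 and 1800, were at like levels. Srrm2 had 539 in low-label and 419 in labelled dormant cells. With 6 cells from 4 mice, 2 of which gave no labelled dormant cell, this was not tested.

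How often a member was found was compared over cells. A smaller share of cells than among proliferating cells had the gene above 0 for 24 of 37 members in all dormant cells, and for 12 of 37 in labelled dormant cells. Among cells above 0, the mean level was below that of proliferating cells for 31 of 37 members in all dormant cells (median difference −0.51) and for 30 in labelled dormant cells (median difference −0.32). These are counts over cells, in which mice with many cells weigh more, and they were not tested. The same counts were not made over all genes, so they cannot be read as particular to the members.

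Cells with more genes above 0 had higher member levels. Pearson's correlation of the member mean with genes above 0 was 0.874 over 28 dormant cells and 0.869 over 29 proliferating cells, both measures being taken from the same library. Only 4 cells had under 4000 genes above 0, namely 1 labelled dormant cell (mouse 452), 2 low-label cells and 1 proliferating cell (mouse 268), and their member means were 3.85, 2.78, 3.32 and 3.46. Without these 4 cells the median difference over members was −0.67 over all mice, −0.28 without low-label cells and −0.63 within shared mice, beside −0.34, −0.03 and −0.44 over all genes.

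**Figure D4:**
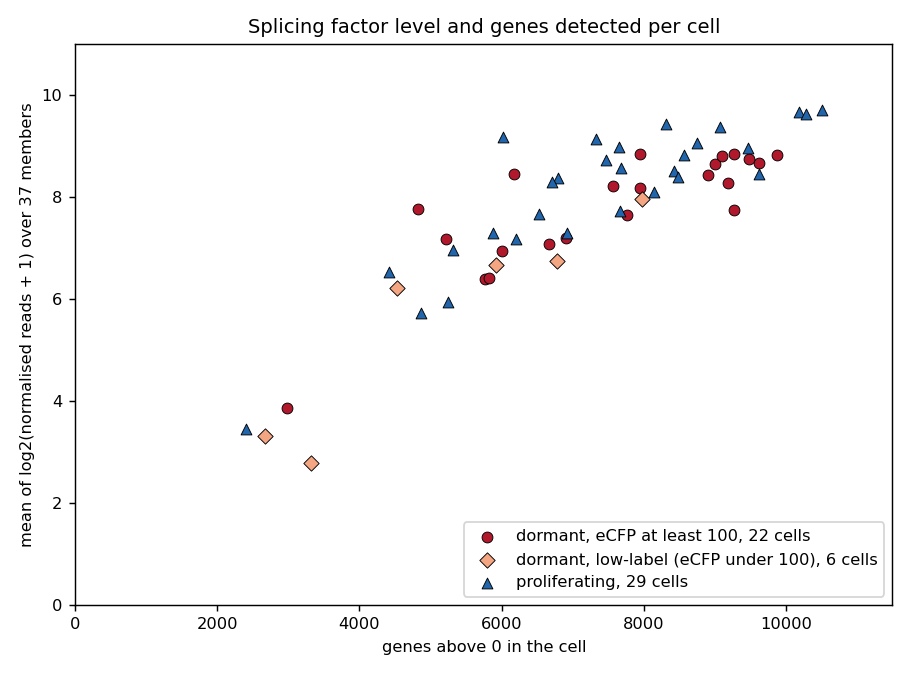
Mean of log2(normalised reads + 1) over the 37 members in each cell against the number of genes above 0 in that cell, for 22 labelled dormant, 6 low-label dormant and 29 proliferating cells. Cells with few genes lie low in each class, down to 2.78 in a low-label cell and 3.46 in a proliferating cell.

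Leaving out every cell with at least 5 of the 18 leukocyte genes above 0 kept 3 dormant mice, and turned the sign. The median difference was then 0.92 over members and 0.78 over all genes. In that setting 6 of 37 members were below 0, with no share of all genes set beside this count. In that setting 1 of the 6 proliferating means, that of mouse 268, rested on its cell with 2399 genes. Within shared mice, where 2 mice remained, the median was −0.04 over members and −0.13 over all genes. The part of leukocyte transcripts in the differences was otherwise not tested.

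Genes that work with the members were measured alongside. Of all genes tested, 63.1% had a difference below 0 over all mice and 45.5% without low-label cells. Of 32 spliceosome genes, mainly of snRNP proteins, 29 had a difference below 0 over all mice (median −0.67) and 15 without low-label cells (median 0.05). The smallest p among them over all mice belonged to Eftud2, the U5 GTPase, at −2.90 ± 1.30 (limma adjusted p = 0.483), against −0.18 ± 1.00 without low-label cells. Of 7 SR protein kinases, 3 were below 0 over all mice (median 0.00) and 2 without low-label cells (median 0.60), and Srpk1 was at 0.79 ± 1.30 over all mice and 1.35 ± 1.51 without low-label cells. Of 31 other splicing regulators and speckle proteins, 25 were below 0 over all mice (median −0.60) and 19 without low-label cells (median −0.30). Taf15, an RNA-binding protein, was at −2.94 ± 1.14 over all mice and −2.49 ± 1.23 without low-label cells (limma adjusted p = 0.450 and 1.00). None of the genes on these 3 lists passed limma's adjusted test in any of the 3 comparisons.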

How the data were processed

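The deposited values were a signal, normalised reads for each gene in each cell and never below 0, which the authors made with BASiCS per the series text. STAR, RSEM, GRCm38 and mm10 appear in the submitters' processing notes, with tool versions not given in the sources used here. Per the labels' protocols, SMARTer cDNA and Nextera XT libraries were made from single cells, in batches of 1 state each. Every cell's gene values came out as whole numbers of reads once divided by their smallest value (100% to within 0.01 reads), so whole reads were recovered. No pair of cells looked like 1 library, the highest correlation between any pair being 0.891.

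log2(value + 1) was averaged over the cells of each mouse and state, and genes above 0 in at least 6 cells were fitted with limma (3.58.1, trend and robust). Mice were a fixed block within the 4 shared mice and no block was used otherwise, with Benjamini-Hochberg adjustment at 0.05. The log scale understates changes of low genes, and the mean of a mouse with 1 cell of a state rests on that cell. Cells of 1 mouse pair the states per the labels; the deviations of the paired means correlated at 0.341, 0.167, 0.003 and −0.006 in mice 369, 452, 360 and 1185. edgeR (4.0.16) and DESeq2 (1.42.0) on recovered reads added up by mouse and state were alternatives, beside other pseudocounts, filters, weights, scalings, and cells or mice left out. The scripts were tested on simulated data.

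The members and lists were chosen with earlier results of these data known, as was the eCFP threshold of 100. Named genes were the 8 members with the smallest p over all mice and the 8 without low-label cells, plus 17 chosen by function, and up to 4 per other list. Sequences came from RefSeq (GRCm38.p6) and exon lengths from GENCODE vM21 (GRCm38). The library kits do not mark strand, and exons of 16 of the 37 members overlap those of another annotated gene, 13 of them on the other strand (Ptbp1, Srsf1, Srsf2, Hnrnpr and Hnrnpk among them), so such reads cannot be told apart. Software was R 4.3.3 and Python 3.11.15, with pandas 2.3.3 and matplotlib 3.10.9.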

Additional observations from a re-analysis of the deposited data

Results flagged for a closer look

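Of 63 groups of 4 or 6 mouse means of the named members, 6 held a mean far from the others by Dixon's test, and chance alone flags about 1 in 20. All values are means of log2(normalised reads + 1). Hnrnpc was 8.75 in dormant cells of mouse 1184, against 10.35 to 10.49 in the other dormant mice. In mouse 452, whose 3 dormant cells include 1 with under 4000 genes above 0, dormant Hnrnpk without low-label cells was 9.01 (others 11.93 to 12.16), dormant Hnrnpu without low-label cells was 4.74 (others 8.45 to 8.76), and dormant Srrm2 over all cells was 5.63 (others 8.07 to 9.35). Srsf2 was 9.63 in the single dormant cell of mouse 244, against 8.98 to 9.20 in the other dormant mice. Srsf5 was 9.75 in dormant cells of mouse 369 without low-label cells, against 9.38 to 9.41 in the other 3 dormant mice.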

How the results depend on the processing

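No setting called a member. DESeq2 on summed recovered reads called 308 genes over all mice, 14 without low-label cells and 221 within shared mice, where limma called 0 in each. Leaving out the leukocyte-rich cells moved the median difference of the members over all mice to 0.92 and called 1 gene within shared mice; the first has fewer dormant mice, and the cause was not tested. Leaving out each mouse in turn gave member medians of −0.92 to −0.21 over all mice, −0.44 to 0.20 without low-label cells and −1.56 to −0.50 within shared mice, with 0 genes called each time. Under a median-of-ratios rescaling the median over all genes was −0.13 over all mice and −0.48 within shared mice, with members at −0.23 and −0.55, below it in both. For the 21 named members, 45 of 420 values over all mice, 38 of 441 without low-label cells and 40 of 378 within shared mice had the other sign. Fitting the mouse as a replicate block over all mice gave a member median of −0.55, and fitting the shared mice with no replicate block gave −1.0; neither pairing changed a call. The setting without cells with under 4000 genes was chosen after seeing the data. With low-label set at an eCFP under 500 in place of 100, the member median without low-label cells was 0.17, against 0.31 over all genes. A cell holds 945351 to 5306777 reads, a count of 0 is not absence, and 4 to 6 mice with unequal cell numbers limit the precision.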
